A study of Mus musculus with 12 samples.

Results

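Pcp4 and 8 genes of calmodulin signalling were followed in BCR-ABL1 transformed mouse B-ALL cells before and after GSK3β inhibition. The 9 members, Pcp4, Calm2, Calm3, Camkk2, Camk1d, Camk4, Camk2d, Camk2g and Ppp3ca, were chosen from this same comparison, in which Pcp4 was far higher after treatment, and they were found by symbol among 41444 genes. All 9 passed the lower limit set on expression, a mean regularized log2 (rlog) value of at least 3 over the samples compared, as did 11536 genes in all. The comparison that chose the members cannot also test them, so their differences are given as a description, with standard errors and without p-values.

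The cells were bone marrow pre-B cells of Ctnnb1 fl/fl mice, expanded with IL7, transformed by retroviral BCR-ABL1 and then grown without IL7. The groups compared both carried the ERT2 vector without Cre, so that the floxed Ctnnb1 alleles stayed intact, and both received 4-OHT (1 µM, 2 days). One group, ERT2 (n = 3), had no further treatment named, and the other, ERT2 + LY2090314 (n = 3), also received the GSK3β inhibitor LY2090314 (40 nM, 1 day). The legend of the study gives a shorter exposure than the labels. The sample labels also hold 2 groups of cells with Cre-ERT2, whose columns could not be told apart by name and are not analysed here.

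Calmodulin is a small calcium-binding protein made from several genes that encode the same amino acid sequence. Calcium-loaded calmodulin activates the CaM kinases and the phosphatase calcineurin. PCP4, best known from cerebellar Purkinje cells, is a short protein whose IQ motif binds calmodulin and speeds its exchange of calcium. In B lineage cells, signals from the pre-B and B cell receptors release calcium from the endoplasmic reticulum through phospholipase C gamma, which opens store-operated channels at the plasma membrane. Calcineurin then dephosphorylates NFAT factors, and CaM kinases phosphorylate CREB and other factors.

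The coding sequence of Pcp4 is shown because this gene carries the largest difference among the members. It is the longest open reading frame of the transcript Pcp4-201 (641 bases, GENCODE vM21), runs over 189 bases including the stop codon, and encodes 62 amino acids. Capitals mark coding bases 136 to 168, the codons of the IQ motif.
Pcp4: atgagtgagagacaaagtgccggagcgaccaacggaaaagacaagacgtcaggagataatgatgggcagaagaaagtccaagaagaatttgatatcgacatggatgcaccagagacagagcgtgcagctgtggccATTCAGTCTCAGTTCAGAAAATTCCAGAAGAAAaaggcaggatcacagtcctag

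Calm2 and Calm3 are shown together because their coding sequences are alike while their levels are measured separately. Each coding sequence runs over 450 bases. They were identical at 82.7% of these bases, with 0 codons that differ in meaning. Over the first 60 coding bases, capitals mark the 8 positions at which the genes have different bases.
Calm2: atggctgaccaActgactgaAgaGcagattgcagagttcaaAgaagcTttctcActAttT
Calm3: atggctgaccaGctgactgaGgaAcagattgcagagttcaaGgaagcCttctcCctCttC
Stretches without capitals are shared, so reads of these genes could in part be assigned to the wrong gene. How far this moved their values was not tested.

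Across the 11536 genes tested, the SD of the difference between libraries was 0.185 to 0.253 within a group and at least 0.581 between the groups. A pair of the LY2090314 columns (A and B) shares a library number and differed by an SD of 0.186. The third LY2090314 sample has a number of its own. The study describes its replicates as separate mice, but whether A and B came from separate mice or from 1 mouse processed again is not known. They were counted as separate samples, and with A and B averaged into 1 sample 4936 genes were called in place of 5778. Axin2, a feedback gene induced by β-catenin, rose by 1.67 (adjusted p = 1.5e-05, limma with Benjamini-Hochberg adjustment), Myc fell by 2.64 (adjusted p = 1.9e-08, limma) and Ctnnb1 fell by 0.35 (adjusted p = 0.00030, limma). All 10 pre-B markers were expressed, but 8 were lower and 1 higher with LY2090314, and the log2 of their summed level went from 16.26 to 16.29 in ERT2 cells to 15.67 to 15.83 in treated cells. Bulk RNA cannot tell fewer cells of a type from less RNA per cell. Depth is unknown, since the values are not counts.

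Pcp4 showed by far the largest difference among the members. Its gene (ENSMUSG00000090223, GRCm38 chromosome 16, 96467606 to 96525793, plus strand) had rlog values of 5.71, 5.83 and 5.73 in the ERT2 samples and of 11.19, 11.14 and 11.26 in the LY2090314 samples. The groups were 5.31 apart at their nearest samples, and no treated sample stood apart from the others. The difference in means was 5.44 (standard error 0.070), a 43.4-fold higher level on the linear scale, and 1 of the 11536 genes rose more. Because rlog values draw low values towards the mean of a gene, the level in untreated cells may be overstated and the fold understated.

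Pcp4 shares 243 exon bases on the same strand with a gene of the symbol Igsf5 (ENSMUSG00000117081), which has no values in these data. Whether reads of that gene entered the value of Pcp4 was not tested. The neighbouring Igsf5 gene (ENSMUSG00000000159) lay at 4.19 ± 0.179 in ERT2 cells and 4.17 ± 0.0986 in treated cells (SD, n = 3 each). Of the genes that mark Purkinje cells and other neurons, 7 of 10 (among them Pcp2, Calb1, Car8, Rbfox3, Snap25 and Gad1) were listed at 0 in all 6 samples. The log2 of the summed level of the neuron markers nevertheless went from 6.69 to 6.80 up to 10.58 to 10.68, which followed Tubb3, a neuronal β-tubulin. Tubb3 rose by 4.33, from 6.27 ± 0.102 to 10.60 ± 0.0543 (SD, n = 3 each, adjusted p = 1.9e-08, limma). Itpka, the other tested marker, fell by 0.55 (adjusted p = 0.0091, limma).

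Most markers of other cells were low, apart from Pecam1. All 6 T cell markers stayed below an rlog value of 3 in all 6 samples, as did 5 of 6 myeloid, 4 of 5 erythroid and 4 of 5 stromal and endothelial markers. Those above it were Ly6g, which rose by 2.96 (adjusted p = 1.3e-07, limma), Pecam1, which rose by 1.20 (adjusted p = 2.4e-06, limma), and Hbb-bt, which fell by 0.44 (adjusted p = 0.0018, limma). The log2 of the summed myeloid level accordingly went from 4.08 to 4.13 up to 6.51 to 6.60, the stromal and endothelial one from 10.47 to 10.55 up to 11.61 to 11.78, and the erythroid one from 3.95 to 4.05 down to 3.59 to 3.66. That of the T cell list was 2.31 to 2.32 without and 2.32 to 2.48 with LY2090314. The part of any such cells in the values of the members was not tested.

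**Figure D1:**
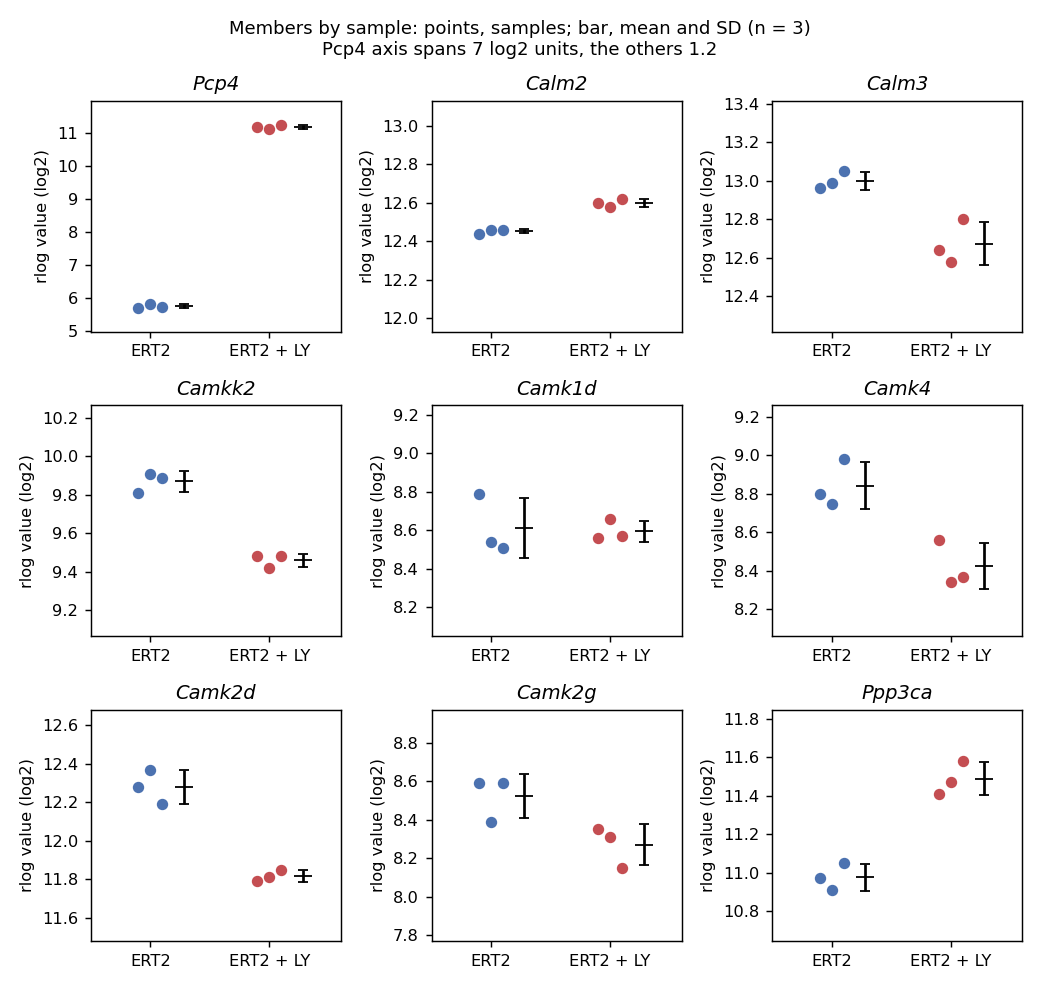
rlog values (log2, y axis) of the 9 members in each ERT2 sample (blue) and each ERT2 + LY2090314 sample (red), with the mean and SD of each group (n = 3) as a black bar. Pcp4 moved from 5.71–5.83 to 11.14–11.26 on an axis of 7 log2 units, whereas the other members, on axes of 1.2 units, differed by at most 0.51 in either direction, and Camk1d overlapped between groups.

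The 5 genes whose values over the 6 samples lay nearest to those of Pcp4, after subtraction of each gene's ERT2 mean, were Nkd1, Slamf6, Slc16a5, Ky and Mmp15. The root mean square difference from Pcp4 was 0.054 for Nkd1, an inhibitor of WNT signalling, 0.261 for Slamf6, 0.382 for Slc16a5, 0.394 for Ky and 0.570 for Mmp15. Mmp15, a membrane-bound matrix metalloproteinase, went from 4.44 to 9.08 (difference 4.64, standard error 0.093). With 2 groups of 3, this likeness mostly ranks genes by the size of their rise.

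The promoter of Pcp4, the 250 bases before and 50 bases after the start given by RefSeq, is printed so that the search for a motif in it can be followed. It lies at GRCm38.p6 chr16:96467356-96467655 on the plus strand. A search on both strands for CTTTGNN with A or T at both N, letters that the TCF/LEF partners of β-catenin bind, found 0 matches, so no base is in capitals.
Pcp4 promoter: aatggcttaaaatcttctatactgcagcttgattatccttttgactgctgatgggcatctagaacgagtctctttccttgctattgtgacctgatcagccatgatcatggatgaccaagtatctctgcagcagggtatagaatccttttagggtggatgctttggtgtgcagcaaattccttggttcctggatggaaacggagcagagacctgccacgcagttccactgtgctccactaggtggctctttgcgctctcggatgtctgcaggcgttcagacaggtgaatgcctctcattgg
Of the 9 members, 5 (Pcp4, Calm3, Camk1d, Camk2d and Camkk2) had a promoter in the RefSeq table and 0 of these held a match, against 16.9% of the 32851 promoters of this length. The search says nothing of sites outside this window.

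The calmodulin genes Calm2 and Calm3 differed little and in opposite directions. Calm2 (chromosome 17, 87433412 to 87446935, minus strand) was at 12.44, 12.46 and 12.46 in ERT2 cells and at 12.60, 12.58 and 12.62 with LY2090314, a difference of 0.15 (standard error 0.043). Calm3 (chromosome 7, 16915379 to 16924114, minus strand) was at 12.96, 12.99 and 13.05 without and at 12.64, 12.58 and 12.80 with LY2090314, a difference of −0.33 (standard error 0.066). The groups did not overlap for either gene, and the third treated sample was the highest of its group for both.

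Transcript levels of different genes can be compared only per length. With the linear value of each gene divided by the length of its joined exons, the share of Calm2 in the sum of Calm2 and Calm3 was 53.5%, 53.2% and 52.3% in the ERT2 samples and 61.6%, 62.3% and 59.4% in the LY2090314 samples. Calm3 held the rest, 47.0% ± 0.65 without and 38.9% ± 1.5 with LY2090314 (SD, n = 3 each). The sum itself differed by −0.06 on the log2 scale.

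On the same per-length scale, Pcp4 stood at 0.720, 0.769 and 0.705 transcripts per 100 transcripts of Calm2 and Calm3 in the ERT2 samples and at 33.2, 32.8 and 33.1 in the LY2090314 samples. With the longest annotated transcript as the length, the group means were 1.02 and 45.8. The ratio therefore depends on the length chosen, by less than the gap between the groups. It also rests on rlog values, which draw low values towards the mean of a gene. The ratio in the ERT2 samples may thus be overstated. These ratios and shares were chosen after the values of the genes were known, and they do not stand for all calmodulin transcripts.

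**Figure D2:**
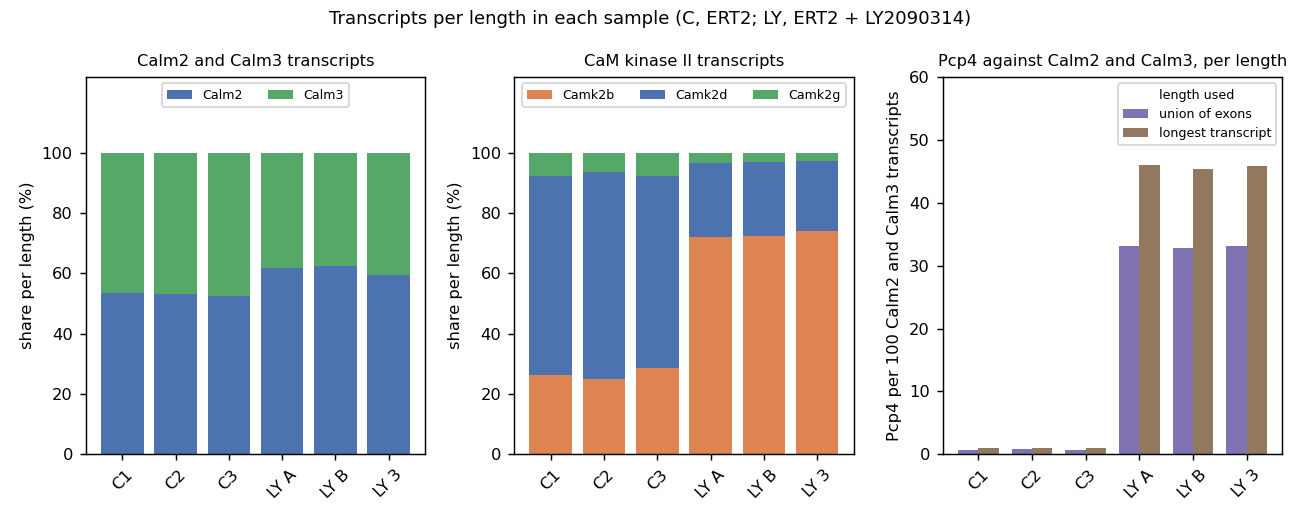
Shares of Calm2 and Calm3 (left, joined exons) and of the CaM kinase II genes (middle, longest transcript) in percent of their sum per length, and Pcp4 per 100 transcripts of Calm2 and Calm3 under both lengths (right), in each ERT2 (C1 to C3) and LY2090314 sample (LY A, B and 3). Camk2b took 24.9% to 28.5% of the CaM kinase II level in ERT2 samples and 72.1% to 74.0% in treated samples, and Pcp4 went from at most 0.769 to at least 32.8 per 100 (joined exons).

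The kinase members lay lower with LY2090314, apart from Camk1d. Camkk2 (chromosome 5, 122731170 to 122779409, minus strand) encodes the upstream kinase that phosphorylates CaM kinases I and IV. It was at 9.81, 9.91 and 9.89 in ERT2 cells and at 9.48, 9.42 and 9.48 with LY2090314, a difference of −0.41 (standard error 0.054) with groups 0.33 apart. Its substrate Camk4 (chromosome 18, 32934931 to 33191228, plus strand), the nuclear CaM kinase IV that phosphorylates CREB, was at 8.80, 8.75 and 8.98 and then at 8.56, 8.34 and 8.37. The difference of Camk4 was −0.42 (standard error 0.092), and treated sample A came nearest to the ERT2 samples. Its 72-base exon overlap with 2310026I22Rik on the other strand concerns a gene at −0.77 to −0.74 in all 6 samples.

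Camk1d (chromosome 2, 5293457 to 5714515, minus strand), a CaM kinase I, was at 8.79, 8.54 and 8.51 in ERT2 cells and at 8.56, 8.66 and 8.57 with LY2090314. The groups overlapped, with a difference of −0.02 (standard error 0.089). Without the first ERT2 sample, which was the highest of all 6, the difference turned to 0.07.

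Camk2d (chromosome 3, 126596302 to 126846326, plus strand) and Camk2g (chromosome 14, 20734875 to 20794088, minus strand) encode subunits of the multimeric CaM kinase II. Camk2d was at 12.28, 12.37 and 12.19 in ERT2 cells and at 11.79, 11.81 and 11.85 with LY2090314, a difference of −0.47 (standard error 0.056). Camk2g was at 8.59, 8.39 and 8.59 and then at 8.35, 8.31 and 8.15, a difference of −0.26 (standard error 0.089). The groups of Camk2d were 0.34 apart, and those of Camk2g were only 0.04 apart.

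Ppp3ca (chromosome 3, 136670124 to 136937727, plus strand), the alpha catalytic subunit of calcineurin, lay higher with LY2090314 by the largest amount among the members after Pcp4. It was at 10.97, 10.91 and 11.05 in ERT2 cells and at 11.41, 11.47 and 11.58 with LY2090314, a difference of 0.51 (standard error 0.062). The groups were 0.35 apart. A larger difference in either direction was found in 21% of the genes tested.

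In 8 of the 9 members the groups did not overlap, against 58.6% of all genes tested, and with the adjusted p of limma under 0.05 as the call, 3 members were higher and 5 lower, against 50.1% of all genes called in either direction. The members were chosen from this comparison, so nothing is read from these counts. Only Pcp4 differed by at least 1 in either direction, as did 6.13% of all genes. Without Pcp4, the median absolute difference of the 8 members was 0.37, beside 0.24 for all genes tested. For the same reason, nothing is read from this difference in medians.

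**Figure D3:**
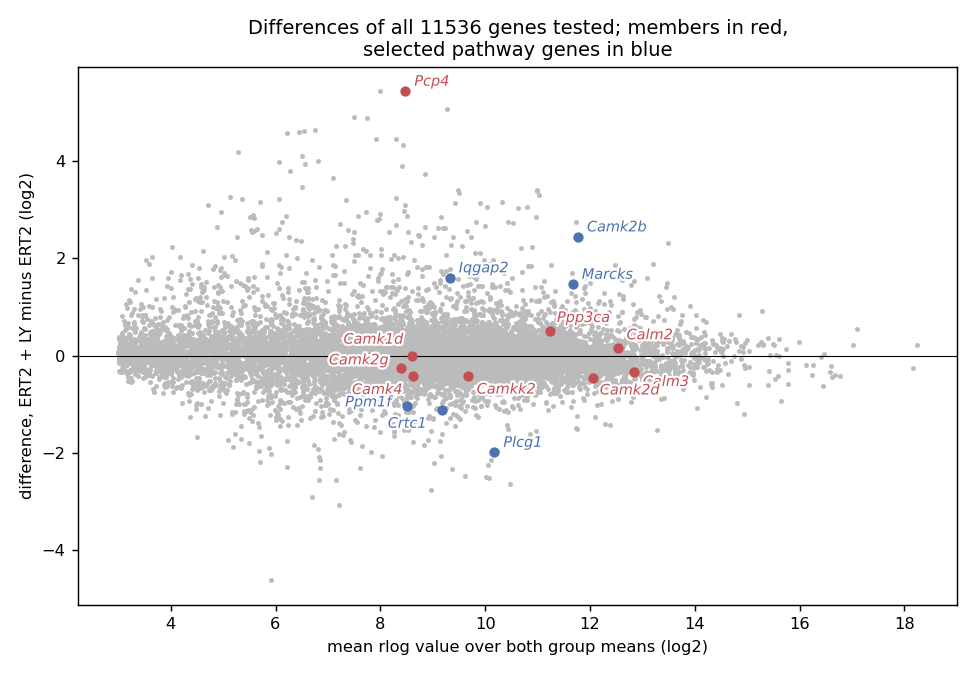
Difference between ERT2 + LY2090314 and ERT2 cells (log2, y axis) against the mean rlog value (x axis) for the 11536 genes tested (grey), with the 9 members in red and 6 other pathway genes in blue. Pcp4 lies at 5.44, near the top of all genes, Camk2b at 2.44 stands above most genes of its level, and the other members lie between −0.47 and 0.51 within the bulk of genes.

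Outside the members, 87 genes of calmodulin and calcium signalling were listed in 7 groups, of which 61 passed the lower limit on expression. With LY2090314, 21 of the 61 were higher (24.8% of all genes tested were) and 16 were lower (25.3% were). The 60.7% called in either direction stands beside the 50.1% of all genes, and the median difference of −0.03 beside 0.01. The counts of single groups given below stand beside these same shares of all genes. Whether any group differs from them was not tested. Requiring a log2 difference of at least 1 as well left 7 of the 61, beside 6.01% of all genes. Where a group holds few called genes, all are named, and those beyond the rule for named genes were chosen after their values were seen.

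Camk2b showed the largest difference of the 61 genes. It encodes the beta subunit of CaM kinase II, which is most abundant in brain and binds actin. Camk2b (ENSMUSG00000057897, chromosome 11, 5969644 to 6066362, minus strand) was at 10.54, 10.49 and 10.61 in ERT2 cells and at 12.92, 12.95 and 13.10 with LY2090314. The groups were 2.31 apart and the difference was 2.44 (standard error 0.060, adjusted p = 7.7e-08, limma), a 5.44-fold higher level. Only 0.824% of the genes tested differed more in either direction.

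Camk2b thus differed in the direction opposite to the members Camk2d and Camk2g. Per length of the longest transcript, Camk2b held 26.6% ± 1.8 of the summed CaM kinase II level in ERT2 cells and 72.8% ± 1.0 with LY2090314 (SD, n = 3 each), while Camk2d went from 66.1% ± 2.5 to 24.1% ± 0.69. Camk2g went from 7.30% ± 0.73 to 3.08% ± 0.37. With joined exons as the length, the share of Camk2b was 37.0% without and 81.0% with LY2090314. The summed CaM kinase II level was higher by 0.99 on the log2 scale per longest transcript and by 1.31 per joined exons. Camk2a, the remaining subunit gene, was listed at −2.12 in all 6 samples and was left out of the sum. These shares were computed after the rise of Camk2b was seen.

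Among the calmodulin-dependent kinases and their inhibitors, 7 of 15 genes were tested, of which 1 (Camk2b) was higher and 4 were lower. Ppm1f and Ppm1e, phosphatases that reverse the phosphorylation of CaM kinases, had lower levels, Ppm1f by a difference of −1.05 (adjusted p = 1.8e-05, limma) and Ppm1e by one of −0.91 (adjusted p = 0.00068, limma). Ppm1f was at 9.01, 9.03 and 9.03 in ERT2 cells and at 7.99, 8.08 and 7.86 with LY2090314. Camk2n2, an inhibitor of CaM kinase II, fell by 0.63 (adjusted p = 0.00097, limma) from a low level of 4.20 ± 0.0546 (SD, n = 3), and Camk1g fell by 0.48 (adjusted p = 0.012, limma). Camkk1 and Eef2k did not pass the test, with differences of −0.29 and 0.11, although Eef2k passed without the third ERT2 sample (adjusted p = 0.037, limma). Camkk1 passed without the third treated sample (adjusted p = 0.039, limma), a fit that left only A and B, which share a library number.

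Calmodulin-binding buffers and scaffolds were higher in 5 of 9 tested genes and lower in 1. Iqgap2, a scaffold with IQ motifs, was at 8.63, 8.42 and 8.52 in ERT2 cells and at 10.13, 10.15 and 10.09 with LY2090314, a rise of 1.60 (standard error 0.068, adjusted p = 1.2e-06, limma). Marcks, a membrane protein that calmodulin displaces, was at 10.98, 10.98 and 10.85 and then at 12.37, 12.44 and 12.41, a rise of 1.47 (standard error 0.053, adjusted p = 5.6e-07, limma). Their relatives Iqgap1 and Marcksl1 rose by 0.73 and 0.51, and Camta2 by 0.45. Iqgap3, by contrast, fell by 0.91 (adjusted p = 1.7e-05, limma), so the 3 Iqgap genes did not move as one. Pcp4l1, the closest relative of Pcp4, was below the limit at 2.23 to 2.49 in all 6 samples.

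Calcineurin subunits and regulators were higher in 4 of 8 tested genes and lower in 1, and the calls other than Rcan1 were of at most 0.36. The catalytic subunit gene Ppp3cc rose by 0.19 (adjusted p = 0.015, limma), Ppp3cb fell by 0.17 (adjusted p = 0.031, limma) and the regulatory subunit gene Ppp3r1 rose by 0.13 (adjusted p = 0.044, limma). With A and B averaged, neither Ppp3cb (adjusted p = 0.059, limma) nor Ppp3r1 (adjusted p = 0.080, limma) was called. Ppp3r1 lost its call without any single one of the 6 samples (adjusted p 0.053 to 0.15, limma). Ppp3cb lost its call without the first or second ERT2 sample or without treated sample A (adjusted p 0.10 to 0.11, limma), and Ppp3cc without the second ERT2 sample or treated sample B (adjusted p = 0.061 each, limma). Chp1, a calcineurin B homologous protein, rose by 0.36 (adjusted p = 0.0065, limma).

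Rcan1, an inhibitor of calcineurin that NFAT induces, was at 3.87, 3.91 and 3.87 in ERT2 cells. With LY2090314 it was at 3.92, 5.54 and 5.71, so that treated sample A stayed at the ERT2 level while B, its partner by library number, did not. Its difference of 1.17 (standard error 0.417) passed narrowly (adjusted p = 0.048, limma). Rcan1 lost the call without any one ERT2 sample or without treated sample B or the third (adjusted p 0.10 to 0.14, limma). The call was also lost with no lower limit on expression (adjusted p = 0.15, limma) and with quantile normalization (adjusted p = 0.071, limma).

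Of the downstream transcription factors and cofactors, 4 of 15 tested genes were higher and 5 lower. Crtc1, a CREB coactivator that calcineurin dephosphorylates, was at 9.72, 9.75 and 9.74 in ERT2 cells and at 8.62, 8.61 and 8.63 with LY2090314, a fall by 1.12 (standard error 0.052, adjusted p = 1.9e-06, limma). Its relatives Crtc2 and Crtc3 differed by 0.27 (adjusted p = 0.012, limma) and −0.23 (adjusted p = 0.015, limma), and Crtc3 was not called without the second ERT2 sample (adjusted p = 0.062, limma). Crem, a factor of the CREB family, rose by 0.73 (adjusted p = 0.0026, limma) and Mef2a by 0.33 (adjusted p = 0.00099, limma), whereas Hdac5, which CaM kinases export from the nucleus, and Atf1 each fell by 0.36. The remaining calls, Nfatc3 (−0.14, adjusted p = 0.037, limma) and Mef2d (0.16, adjusted p = 0.027, limma), were lost in turn without single samples. Nfatc3 was not called without the first or second ERT2 sample or without treated sample A or B (adjusted p 0.078 to 0.14, limma), and Mef2d without any 1 of the samples other than the third treated one (adjusted p 0.065 to 0.10, limma). With A and B averaged, neither Nfatc3 (adjusted p = 0.098, limma) nor Mef2d (adjusted p = 0.076, limma) was called. Nfatc1 differed by −0.16 and did not pass (adjusted p = 0.10, limma).

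Genes of calcium entry, release and pumping were all tested, with 5 of 15 higher and 4 lower. Plcg1, phospholipase C gamma 1, fell furthest, from 11.16, 11.16 and 11.20 in ERT2 cells to 9.13, 9.50 and 8.90 with LY2090314 (difference −1.99, standard error 0.133, adjusted p = 1.3e-05, limma). Plcg2, the form that acts downstream of the B cell receptor, rose by 0.31 (adjusted p = 0.0042, limma). At the store-operated channel, the calcium sensor Stim1 rose by 0.55 (adjusted p = 0.00010, limma) and its negative regulator Saraf by 0.99 (adjusted p = 6.6e-05, limma), while the channel subunit Orai1 fell by 0.65 (adjusted p = 0.00055, limma).

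Of the inositol trisphosphate receptors, Itpr2 rose by 0.68 (adjusted p = 3.4e-05, limma) and Itpr3 fell by 0.21 (adjusted p = 0.014, limma). Itpr3 lost its call without the first (adjusted p = 0.054, limma) or second ERT2 sample (adjusted p = 0.058, limma). Itpr1 varied within the groups, at 9.75, 10.54 and 9.39 in ERT2 cells and at 10.38, 10.34 and 8.71 with LY2090314. Treated samples A and B lay close together and the third lay apart. Of the calcium pumps, Atp2a3 of the endoplasmic reticulum rose by 0.37 (adjusted p = 0.00072, limma) and Atp2b4, a plasma membrane pump that calmodulin stimulates, fell by 0.76 (adjusted p = 0.0051, limma).

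Among other calmodulin-regulated enzymes and channels, 2 of 6 tested genes were higher and 1 lower. Itpkb, which phosphorylates inositol trisphosphate, rose by 0.33 (adjusted p = 0.00074, limma), and the adenylyl cyclase gene Adcy3 rose by 0.32 (adjusted p = 0.0076, limma). Itpka fell by 0.55, as given with the neuron markers. Pde1b, a calmodulin-dependent phosphodiesterase, was at 6.24, 5.88 and 5.48 in ERT2 cells and at 7.35, 7.41 and 5.85 with LY2090314. It did not pass (difference 1.00, adjusted p = 0.073, limma). Pde1b passed without the third treated sample (difference 1.51, adjusted p = 0.00086, limma). That fit left only A and B, which share a library number and may come from 1 mouse. The third treated sample, at 5.85, lay within the range of the ERT2 samples.

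**Figure D4:**
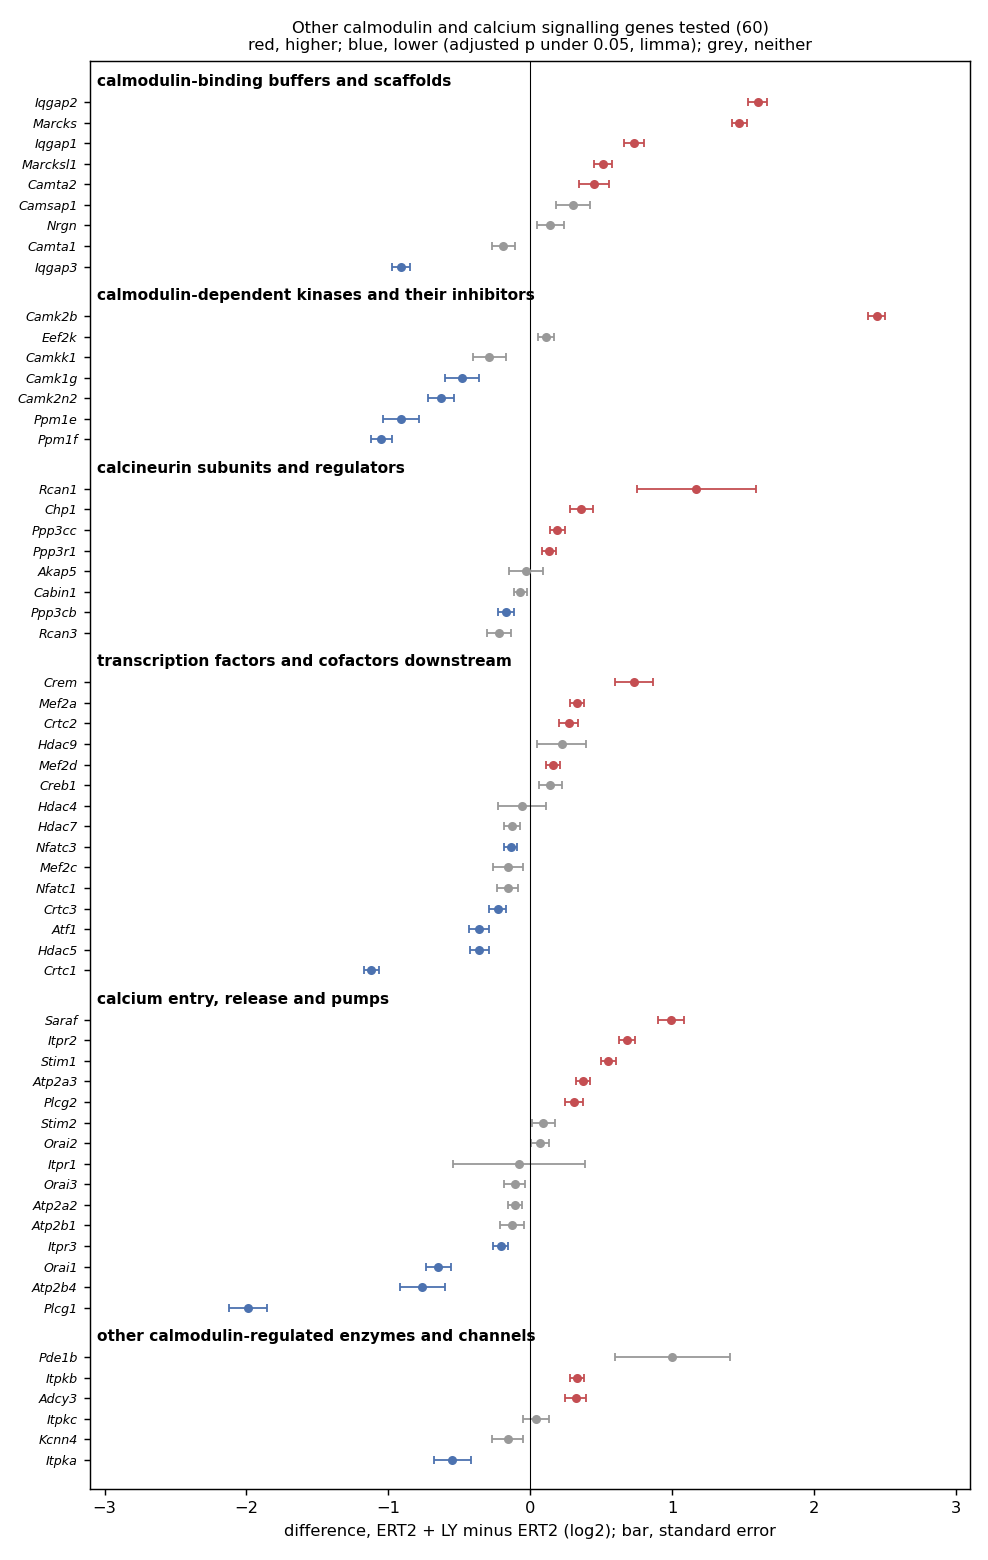
Difference between ERT2 + LY2090314 and ERT2 cells (log2, x axis, with standard error) for the tested pathway genes outside the members, grouped by role, with 1 of the 61 not shown. Red marks the 21 higher and blue the 16 lower genes, with Camk2b at 2.44 and Plcg1 at −1.99 as the ends of the range.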

How the data were processed

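Polyadenylated RNA of the cells was sequenced with paired ends after stranded library preparation. The values the authors deposited are rlog values, that is, log2 counts scaled for library size with low values shrunk towards the mean of the gene, from Salmon and STAR run on GRCm38 (GENCODE vM24). Which samples and options entered the rlog step is not given in the sources used here. Of 12 columns, 6 were matched by name to a group, and 6 were not used.

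Genes with a mean of at least 3 over the 6 samples were fitted with limma 3.58.1 in R 4.3.3 (mean-variance trend, Benjamini-Hochberg adjustment over 11536 genes, threshold 0.05). No count model was used, because no counts are given. Linear values were divided by exon length from GENCODE vM21 for levels per length. Symbols were matched to 41157 of 41444 identifiers, and positions are those of GENCODE vM21 on GRCm38, an earlier release than that of the authors.

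The members, the gene lists and the tests were chosen with earlier results of these data known. Named were all members, Ppp3r1 and Ppp3cb, up to 2 of the largest rises and falls per list among genes with an adjusted p under 0.05, genes whose exons overlap those of a member, the 5 genes nearest to Pcp4, and Ctnnb1, Axin2 and Myc. Another gene of the rule, and a result that needs it, are not reported here. Alternatives were no trend, no lower limit, a limit of 5, median centring, quantile normalization, leaving out each sample, averaging the columns with a shared library number, a threshold of 0.01 and a log2 difference of at least 1. The p-values measure only the spread between these samples.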

Additional observations from a re-analysis of the deposited data

How the results depend on the processing

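With a log2 difference of at least 1 also required, the genes changed by LY2090314 went from 5778 to 693 and those of the pathway lists from 37 to 7. When 1 of the 6 samples was omitted at a time, they numbered 4734 to 6228 and 30 to 38, and the members whose groups did not overlap 8 to 9. The counts of 6228 and 38 came without the third treated sample. That omission left only A and B, which share a library number, as the treated group. With the pair of treated columns that shares a library number averaged, 4936 genes and 33 pathway genes were called, and the pathway calls lost were Ppp3cb, Ppp3r1, Nfatc3 and Mef2d. With no trend, those of Ppp3cb, Ppp3r1, Rcan1 and Nfatc3 were lost (adjusted p 0.058 to 0.086, limma). With no lower limit, Ppp3cb, Ppp3r1 and Rcan1 were not called (adjusted p 0.055 to 0.15, limma). Median centring removed the calls of Ppp3r1, Mef2d and Rcan1 (adjusted p 0.05 to 0.11, limma). Other list genes gained a call under these settings. Quantile normalization moved the share of higher genes among all calls from 49.5% to 43.4%, and gave 20 higher and 21 lower pathway genes. Pcp4 rose by 5.40 to 5.48 and Camk1d ranged from −0.07 to 0.07 over the 9 settings that can move a difference, and no other member changed sign. Calm2 ranged from 0.12 to 0.16 and was the only member moved by more than its within-group SD, with median centring. No paired analysis was possible because nothing in the table ties a column to a replicate number of the titles. Depth is unknown, so what it limits was not assessed. The values per length were also computed with the other length, an alternative chosen after seeing the data for Pcp4 and Camk2b.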
